A study of Danio rerio with 4 samples.

Results

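The cells described here are neurons of the zebrafish skull roof dissection that carried RNA of neurod1 and none of gad1b, called neurod1 neurons below. A cell was counted when it held at least 1 neurod1 UMI (a tag that marks 1 captured RNA molecule), no gad1b UMI, at least 1 UMI of 2 or more of the 6 neuronal genes elavl3, elavl4, snap25a, snap25b, stmn1b and syt1a, and UMIs of fewer than 3 of the 4 olfactory receptor neuron genes ompa, ompb, cnga4 and gng13b. Of 21311 cells that held over 200 but under 2500 genes, with mitochondrial genes below 25% of UMIs, 977 met this rule. Of these, 956 came from juvenile fish, so the account by gene rests on the juvenile libraries. The rule used the values of these 12 genes, which are therefore described and not tested. In 1 adult library 18 of the 19 cells that met the rule had a photoreceptor and pineal profile, and these are described last. Of the 956 juvenile cells 18 had that profile too. The other adult library held 2 cells that met the rule.

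The study profiled the developing skull roof before and after its sutures form, by droplet single-cell RNA sequencing of 4 libraries from pooled fish of the tubingen strain. Juveniles measured 9-11 mm and adults 22-25 mm, and 20 juvenile or 10 adult fish are stated, without saying whether for each library. Live cells (DAPI negative) were sorted after the calvaria had been taken away from the brain. Juvenile replicate 1 and adult replicate 1 came from fish with the cdh1:mlanYFP reporter (ecad:YFP in the labels) and lacked YFP+ cells, juvenile replicate 2 came from sp7:GFP fish and lacked GFP+ cells, and adult replicate 2 had no reporter gate. The labels carry no replicate numbers, so the numbers here follow the order of the records and pair nothing. The deposited tables hold 22012568 and 24854689 UMIs for the juveniles and 6986539 and 7873717 for the adults. Values given in pairs below are for juvenile replicate 1 and then juvenile replicate 2, and levels are in CPM (UMIs of a gene per 1000000 UMIs of the same cells). Between the juvenile libraries 101 cell barcodes were shared, 2 of them among the members, and 14 to 32 between the other pairs of libraries. Juvenile replicate 1 carried much hemoglobin RNA in cells of every kind, at 3.67% of the UMIs of its neurod1 neurons against 0.00384% in replicate 2.

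NeuroD1 is a basic helix-loop-helix (bHLH) transcription factor that drives the late steps by which a neural progenitor becomes a neuron, and it is also known from endocrine cells, photoreceptors and pinealocytes. In the vertebrate brain it is known best from glutamatergic lineages, such as the granule cells of the cerebellum and excitatory neurons of the pallium, where neurod2 and neurod6 genes act after it. The gene gad1b encodes glutamate decarboxylase, which makes GABA, so its absence from the rule sets these cells against inhibitory neurons. Inhibitory neurons instead rely on dlx genes in the forebrain and on tal and gata genes in the midbrain and hindbrain.

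In juvenile replicate 1, 355 of 8313 cells were neurod1 neurons (4.27%, 95% Clopper-Pearson interval 3.85 to 4.73). In juvenile replicate 2, 601 of 7932 were (7.58%, interval 7.0 to 8.18). The adult libraries held 19 of 2072 (0.917%, interval 0.553 to 1.43) and 2 of 2994 (0.0668%, interval 0.00809 to 0.241). Such intervals cover counting error only, since cells of 1 library share their fish, dissection and sort. Both juvenile libraries thus stood above both adult ones, by 5.43 percentage points on average (5.92 ± 2.34 against 0.492 ± 0.601, SD, n = 2 libraries each). The exact permutation test gave p = 0.333 (two-sided), the smallest that 2 libraries against 2 allow. As a share of the cells that passed the neuronal and olfactory parts of the rule alone, the shares were 12.8% and 17.1% in the juveniles and 35.8% and 12.5% in the adults. The adult share of 35.8% rests on 19 cells, 18 of them with 3 or more photoreceptor and pineal genes. With such cells left out of all libraries the shares were 12.4% and 17.0% in the juveniles and 3.70% and 12.5% in the adults, so the sign of the stage difference on this denominator turned from -9.25 to 6.62 points (exact permutation p = 1 and 0.667). How much brain or other neural tissue stayed with each dissected skull roof was not measured, and it cannot be told apart from stage in these shares.

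Most members rested on few molecules of neurod1. Exactly 1 neurod1 UMI was present in 520 of the 956 juvenile members, 2 UMIs in 124 and 3 or more in 312, with a maximum of 29 and 37 UMIs in a cell. The level was 1004 and 1426 CPM, and it was 12.8 and 12.7 CPM in leukocytes of the same libraries. Leukocytes here are cells outside the neuronal rule with at least 3 of ptprc, coro1a, lcp1, laptm5 and arhgdig. They serve as a rough measure of free RNA. Hemoglobin took 0.789% of their UMIs in juvenile replicate 1 against 3.67% in members, and 0.00373% against 0.00384% in replicate 2. Levels in leukocytes can therefore understate the free RNA of members in juvenile replicate 1. A neurod1 UMI was present in 4.38% and 6.00% of those leukocytes, at a median of 3000 and 4198.5 UMIs per cell against 1423 and 1962 in the members. When each cell was thinned to 1000 UMIs, 64.9% and 60.6% of members and 1.38% and 1.47% of leukocytes held one. Every member held a neurod1 UMI by the rule, and leukocytes were not chosen by it. The gaps in level and share between them thus follow from the rule and do not measure free RNA in members. Members with 1 UMI are the least certain, since some leukocytes held one too.

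The neuronal genes of the rule were led by stmn1b, a stathmin of growing axons, at 2005 and 1980 CPM. The pan-neuronal RNA-binding gene elavl3 followed at 1481 and 2257 CPM and was detected in 70.4% and 88.0% of members, and its relative elavl4 at 833 and 1294 CPM in 49.6% and 56.2%. The synaptic genes were lower, with snap25a at 299 and 470 CPM, snap25b at 550 and 494 CPM and syt1a at 369 and 480 CPM. At the edges of the rule, 322 juvenile members held exactly 2 of the 6 neuronal genes, and 312 further cells with neurod1 held exactly 1 and so stayed out. With gad1b, 29 otherwise fitting cells were left out for a single UMI and 24 for 2 or more. On the olfactory side, 12 members held 2 of the genes and 8 cells with 3 were left out.

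Other sets of neurons that passed the same neuronal and olfactory parts of the rule served for comparison, the 521 juvenile cells with gad1b and no neurod1 (157 and 364, called gad1b neurons) and the 4769 with neither gene (2251 and 2518). Cells with neither gene include any in which neurod1 or gad1b went uncaptured. UMIs were summed per library and group, and the 8 sums (the 53 cells with both genes gave the rest) were fitted together with edgeR's quasi-likelihood test with the library as a block. Every adjusted p below comes from that fit, with Benjamini-Hochberg adjustment over 10798 genes. Every ± beside a log2 fold change is a standard error worked back from the F statistic (absolute log2 fold change over the square root of F). For genes with few UMIs it can understate counting error. Because the same sums of neurod1 neurons enter both comparisons, the comparisons are not independent of each other. Against gad1b neurons 10.3% of the genes tested passed at an adjusted p under 0.05, with 5.67% higher in neurod1 neurons and 4.64% lower. In the comparison with neurons with neither gene 2.94% passed, with 1.32% higher and 1.61% lower. Counts of list genes below are to be read against these shares. The median log2 fold change over all genes was 0.05 in both. Genes higher in neurod1 neurons made up 55.0% of the calls against gad1b neurons and 45.1% of those against neurons with neither gene, and 37.8% and 70.4% when libraries were scaled by their total UMIs, which moved the median of all genes to -0.14 and 0.24. A list whose median lies within that shift of 0 therefore has no settled direction. Without the library block, 39 genes passed against gad1b neurons and 0 against neurons with neither gene in edgeR, where 531 had an unadjusted p under 0.05 and DESeq2 with the block called 128. The calls thus depend on comparing groups within each library. Of the calls against neurons with neither gene named below, those of neurod4, neurod6a, neurod6b, insm1a, insm1b, bhlhe22, myt1a, myt1b, zic1, zic4, fat2, en1b, en2b, eomesa, emx3, sypb, cart2, rbp4l and exorh were also lost with DESeq2. Those of neurod2, slc17a7a, zic2a, zic5, barhl1b, bhlhe23, cspg5b and cdc20 were lost without the block and under no other setting tried.

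The other bHLH factors of the neurogenic cascade were broadly higher in neurod1 neurons. The rule chose members by neurod1 and both other groups by its absence. Counts of genes that go with neurod1, here and below, are therefore not independent of the rule. Factors low in both other groups, such as neurod2, could also pass the filter on low counts through members alone. Of 22 listed bHLH and zinc finger factors 15 could be tested, and 11 were higher and 1 lower against gad1b neurons, where 5.67% of all genes were higher and 4.64% lower (median log2 fold change 2.57, against 0.05 for all genes). Against neurons with neither gene 10 were higher and none lower, where 1.32% of all genes were higher (median 1.85). The factor neurod2, which acts in excitatory neurons after neurod1, was at 60.8 and 126 CPM in neurod1 neurons, 2.87 and 0.955 in gad1b neurons, and 5.41 and 9.84 in neurons with neither gene. Its log2 fold change was 6.34 ± 0.65 (adjusted p = 5.4e-05) against the former and 3.39 ± 0.35 (adjusted p = 0.00028) against the latter, and it was present in 31 of 355 and 102 of 601 members. Both libraries of neurod1 neurons stood above both of every other group, leukocytes included (2.18 and 0.666 CPM). The call against gad1b neurons also held without the block.

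The proneural relative neurod4 was at 185 and 128 CPM, against 8.60 and 3.82 in gad1b neurons and 16.4 and 6.78 in neurons with neither gene. It rose by 4.95 ± 0.70 (adjusted p = 0.00059) and 3.70 ± 0.49 (adjusted p = 0.0012) on the log2 scale. The pallial gene neurod6b was at 68.4 and 138 CPM, and rose by 3.95 ± 0.47 (adjusted p = 0.00018) and 2.19 ± 0.33 (adjusted p = 0.0030). Its paralog neurod6a moved the same way at lower levels of 32.9 and 50.8 CPM, with log2 fold changes of 4.1 ± 0.66 and 2.01 ± 0.37 (adjusted p = 0.0015 and 0.011). The zinc finger gene insm1a, a factor of late progenitors and newborn neurons and of endocrine cells, was the most abundant of the group at 374 and 394 CPM. In gad1b neurons it was at 22.9 and 27.7 CPM and in neurons with neither gene at 76.6 and 85.2 CPM, with log2 fold changes of 4.06 ± 0.49 (adjusted p = 0.00019) and 2.05 ± 0.40 (adjusted p = 0.016). Its paralog insm1b, and bhlhe22 and bhlhe23, which act in subsets of excitatory and retinal neurons, also passed in both comparisons (log2 fold changes 1.85 to 3.28). The proneural gene ascl1a rose against gad1b neurons, from 0 and 4.77 CPM to 25.3 and 45.6 CPM (log2 fold change 3.74 ± 0.55, adjusted p = 0.00075), while its difference from neurons with neither gene was 0.60 ± 0.31 (adjusted p = 0.36). The myelin transcription factor-like genes myt1a and myt1b passed only against neurons with neither gene (1.27 ± 0.28 and 1.19 ± 0.28). The single member of the list that was lower against gad1b neurons was scrt1a, a scratch-family repressor of postmitotic neurons, at 27.9 and 35.1 CPM against 65.9 and 122 CPM (log2 fold change -1.40 ± 0.31, adjusted p = 0.012). Whether a gene's fold change differs between the comparisons was not tested.

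**Figure D1:**
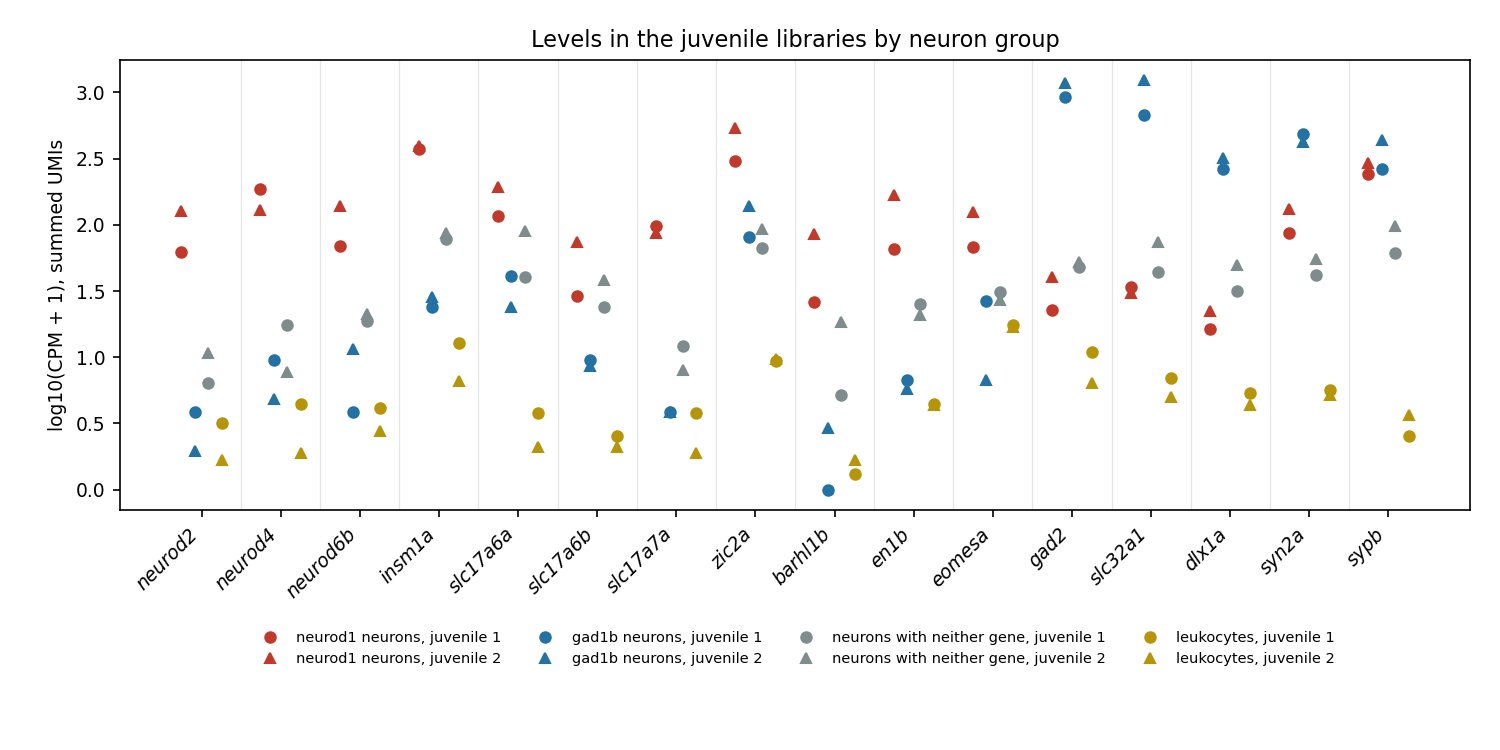
Levels of 16 genes in the 2 juvenile libraries. The vertical axis is log10(CPM + 1) of UMIs summed per library and group, circles are juvenile replicate 1 and triangles juvenile replicate 2, and colours are the neurod1 neurons, gad1b neurons, neurons with neither gene and leukocytes. The points of neurod1 neurons for neurod2, neurod4, neurod6b, insm1a, slc17a7a, zic2a, barhl1b, en1b and eomesa lie above those of every other group in both libraries, and those for gad2, slc32a1 and dlx1a lie far below the gad1b neurons.

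Some genes of glutamate release, which the rule did not use, were higher than in gad1b neurons. That group was chosen by gad1b, so this contrast is not independent of the rule. Of all genes 5.67% were higher against gad1b neurons and 1.32% against neurons with neither gene. Among the 5 testable genes of glutamate release, the vesicular glutamate transporters slc17a6a, slc17a6b and slc17a7a were higher against gad1b neurons and none was lower (median 2.66). Of these, slc17a7a alone passed against neurons with neither gene (median 0.51). The transporter slc17a6a was at 117 and 193 CPM, against 40.1 and 22.9 in gad1b neurons and 39.1 and 88.4 in neurons with neither gene. Its log2 fold change was 2.66 ± 0.46 against gad1b neurons (adjusted p = 0.0025) and 1.13 ± 0.36 against neurons with neither gene (adjusted p = 0.11). The related slc17a6b was at 27.9 and 72.9 CPM, with 3.01 ± 0.48 (adjusted p = 0.0013) and 0.51 ± 0.31 (adjusted p = 0.46). The transporter slc17a7a, used for example by granule cells and pallial neurons, was at 96.3 and 85.9 CPM against 2.87 and 2.86 CPM in gad1b neurons and 11.2 and 6.94 CPM in neurons with neither gene. It gave the clearest separation of the 3, with 5.08 ± 0.56 (adjusted p = 6.8e-05) and 3.15 ± 0.33 (adjusted p = 0.00028). By cell, 78 of 355 and 182 of 601 members held a UMI of at least 1 vesicular glutamate transporter, 200 held slc17a6a or slc17a6b, 98 held slc17a7a, and 38 held both kinds. At these levels a cell without a UMI cannot be called negative.

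The machinery of inhibitory transmission was low in neurod1 neurons. The rule left out cells with gad1b, so these counts are not independent of it. Of all genes 4.64% were lower against gad1b neurons. Of 6 tested genes of GABA and glycine release 5 were lower against gad1b neurons (median log2 fold change -4.07), and none passed against neurons with neither gene (median -0.65). The second decarboxylase gad2 was at 21.5 and 39.7 CPM against 926 and 1177 CPM in gad1b neurons (log2 fold change -4.92 ± 0.39, adjusted p = 6.7e-06), and at 47.3 and 51.1 CPM in neurons with neither gene (-0.91 ± 0.36, adjusted p = 0.20). The vesicular GABA transporter slc32a1 was at 32.9 and 29.3 CPM against 674 and 1232 CPM (-4.68 ± 0.49). The GABA uptake transporters slc6a1a and slc6a1b fell by 3.46 ± 0.36 and 4.68 ± 0.39 on the log2 scale. A gad2 UMI was present in 50 of the 956 members. Of 10 tested forebrain inhibitory transcription factors 9 were lower (median -3.38), with dlx1a at 15.2 and 21.5 CPM against 264 and 317 CPM (-3.80 ± 0.32, adjusted p = 8.0e-06) and dlx5a at 21.5 and 16.9 CPM against 275 and 298 CPM (-3.74 ± 0.34). These 2 genes were also lower than in neurons with neither gene (-1.28 ± 0.31 and -1.52 ± 0.33, adjusted p = 0.039 and 0.023). Of 10 midbrain and hindbrain inhibitory factors 4 were lower, among them tal1 (-3.02 ± 0.49), tal2 (-2.61 ± 0.58) and gata3 (-2.09 ± 0.40). The dopamine transporter slc6a3 fell by 5.99 ± 0.71, from 155 and 26.7 CPM to 2.53 and 0 CPM, and the monoamine genes slc18a2 and ddc fell by 2.17 ± 0.56 and 2.12 ± 0.45.

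Genes of cerebellar granule cells marked many members. At least 3 of the 25 listed genes were found in 78 of 355 and 216 of 601 members (22.0% and 35.9%), in 6.22% and 12.4% of neurons with neither gene, in 24.2% and 20.1% of gad1b neurons and in 0.224% and 0.444% of leukocytes. Gad1b neurons were deeper, and after thinning to 1000 UMIs the shares were 16.0% and 25.2% of members, 12.7% and 6.23% of gad1b neurons and 3.12% and 6.08% of neurons with neither gene. Against neurons with neither gene 9 of 21 tested genes were higher, where 1.32% of all genes were, and none lower (median 1.08). Against gad1b neurons 6 were higher and 2 lower (median 0.88), where 5.67% and 4.64% of all genes were. The zinc finger factor zic2a was at 303 and 542 CPM, against 80.3 and 138 in gad1b neurons and 66.1 and 92.3 in neurons with neither gene (log2 fold changes 2.12 ± 0.36 and 2.19 ± 0.34, adjusted p = 0.0019 and 0.0042). Its relative zic5 was at 128 and 176 CPM, with 2.40 ± 0.30 and 2.42 ± 0.25 (adjusted p = 0.00021 and 0.00028). The genes zic1 and zic4 passed only against neurons with neither gene (1.49 ± 0.33 and 1.39 ± 0.30). The homeobox gene barhl1b, a marker of the granule lineage, was at 25.3 and 84.6 CPM against 0 and 1.91 CPM in gad1b neurons and 4.21 and 17.4 CPM in neurons with neither gene (5.78 ± 0.61 and 2.19 ± 0.31, adjusted p = 5.4e-05 and 0.0018). The giant cadherin gene fat2, present in granule cells of the mouse, passed in both comparisons (2.53 ± 0.56 and 1.89 ± 0.37).

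Not every granule gene followed. The receptor grm4 was lower than in gad1b neurons, at 6.33 and 20.2 CPM against 45.9 and 56.3 CPM (-1.66 ± 0.40, adjusted p = 0.016). The cerebellins cbln12 (10.1 and 13.7 CPM) and cbln1 (30.4 and 103 CPM) parted, since cbln12 rose by 3.24 ± 0.66 against neurons with neither gene (adjusted p = 0.018) while the change of cbln1 there was 0.61 ± 0.59. The progenitor gene atoh1a was at 2.53 and 0.651 CPM, and atoh1b at 2.53 and 22.8 CPM, both too low to be tested. The receptor gene gabra6a, a mark of mature granule cells in mammals, had no UMI in the members of either library. Of the paired-box genes, pax6b was at 40.5 and 122 CPM in members and at 140 and 0 CPM in gad1b neurons, so that its groups overlapped (adjusted p = 0.47).

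The engrailed genes of the midbrain and anterior hindbrain were also higher. The gene en1b was at 64.6 and 167 CPM against 5.73 and 4.77 CPM in gad1b neurons and 24.3 and 19.8 CPM in neurons with neither gene (4.78 ± 0.59 and 2.11 ± 0.38, adjusted p = 0.00020 and 0.0092). The gene en2b was at 87.4 and 184 CPM (2.94 ± 0.35 and 1.33 ± 0.27, adjusted p = 0.00017 and 0.018), and en2a passed against gad1b neurons alone (1.94 ± 0.48). At least 3 genes of the list for tectum and thalamus were found in 7.32% and 18.1% of members. The shares were 3.82% and 18.7% in gad1b neurons and 4.13% and 15.2% in neurons with neither gene. After thinning they were 3.03% and 6.60%, 0% and 4.26%, and 2.25% and 7.63% in the same order. Of all genes 5.67% were higher and 4.64% lower against gad1b neurons. Over the whole list 5 of 17 were higher and 4 lower there (median 0.27), so the list did not move as one. The 3 engrailed genes and pou4f2, a POU factor of retinal ganglion and tectal neurons (46.9 and 76.1 CPM, 3.15 ± 0.47), account for 4 of the 5. The 4 lower genes were pax7a (-2.20 ± 0.37), pax7b (-1.71 ± 0.52), meis2a (-1.74 ± 0.36) and sox1a (-3.41 ± 0.75). Against neurons with neither gene 2 were higher, where 1.32% of all genes were, and none lower (median 0.15).

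Genes of the pallium, the dorsal forebrain, were found in fewer members. At least 3 of 16 listed genes were found in 10.7% and 19.0% of members, in 5.10% and 11.3% of gad1b neurons and in 0.449% and 0.889% of leukocytes. Of 12 tested genes 5 were higher against gad1b neurons, where 5.67% of all genes were, and none lower (median 1.71). Against neurons with neither gene 2 were higher (median 0.33), where 1.32% of all genes were. The T-box gene eomesa was at 67.1 and 125 CPM against 25.8 and 5.73 CPM in gad1b neurons (3.27 ± 0.55, adjusted p = 0.0019) and 30.1 and 25.8 CPM in neurons with neither gene (1.59 ± 0.39, adjusted p = 0.042). It was at 16.5 and 16.0 CPM in leukocytes, where lymphocytes are known to use it. The homeobox gene emx3 was at 41.8 and 63.8 CPM and passed in both comparisons (3.37 ± 0.54 and 1.61 ± 0.34). The T-box gene tbr1b, at 48.1 and 56.0 CPM, passed against gad1b neurons (2.14 ± 0.59, adjusted p = 0.031) and was at 21.6 and 46.1 CPM in neurons with neither gene (0.46 ± 0.41, adjusted p = 0.64).

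Of the habenula list 4 of 12 were higher against gad1b neurons, where 5.67% of all genes were, and none lower (median 0.10). Against neurons with neither gene 1 was higher and 1 lower (median -0.01), where 1.32% and 1.61% of all genes were. The POU factor pou4f1 was at 55.7 and 16.3 CPM (3.42 ± 0.64 against gad1b neurons), the G-protein gene gng8 at 148 and 258 CPM (3.03 ± 0.53), and the potassium-channel-related kctd12.1 at 136 and 70.9 CPM (1.44 ± 0.29). The neuropeptide gene kiss1 of the habenula was lower than in neurons with neither gene, at 32.9 and 10.4 CPM against 89.0 and 29.7 CPM (-1.67 ± 0.31, adjusted p = 0.012). Against those neurons pou4f1 and gng8 did not pass (0.17 ± 0.34 and -0.90 ± 0.45). Of genes of sensory ganglia 5 of 14 were higher and 1 lower against gad1b neurons (median 0.80), where 5.67% and 4.64% of all genes were. Among those higher, the intermediate filament gene prph was at 51.9 and 39.0 CPM (3.02 ± 0.48). The homeobox gene isl2b was found in 8 and 14 members at 25.3 and 26.7 CPM and had no UMI in gad1b neurons (adjusted p = 0.0020).

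**Figure D2:**
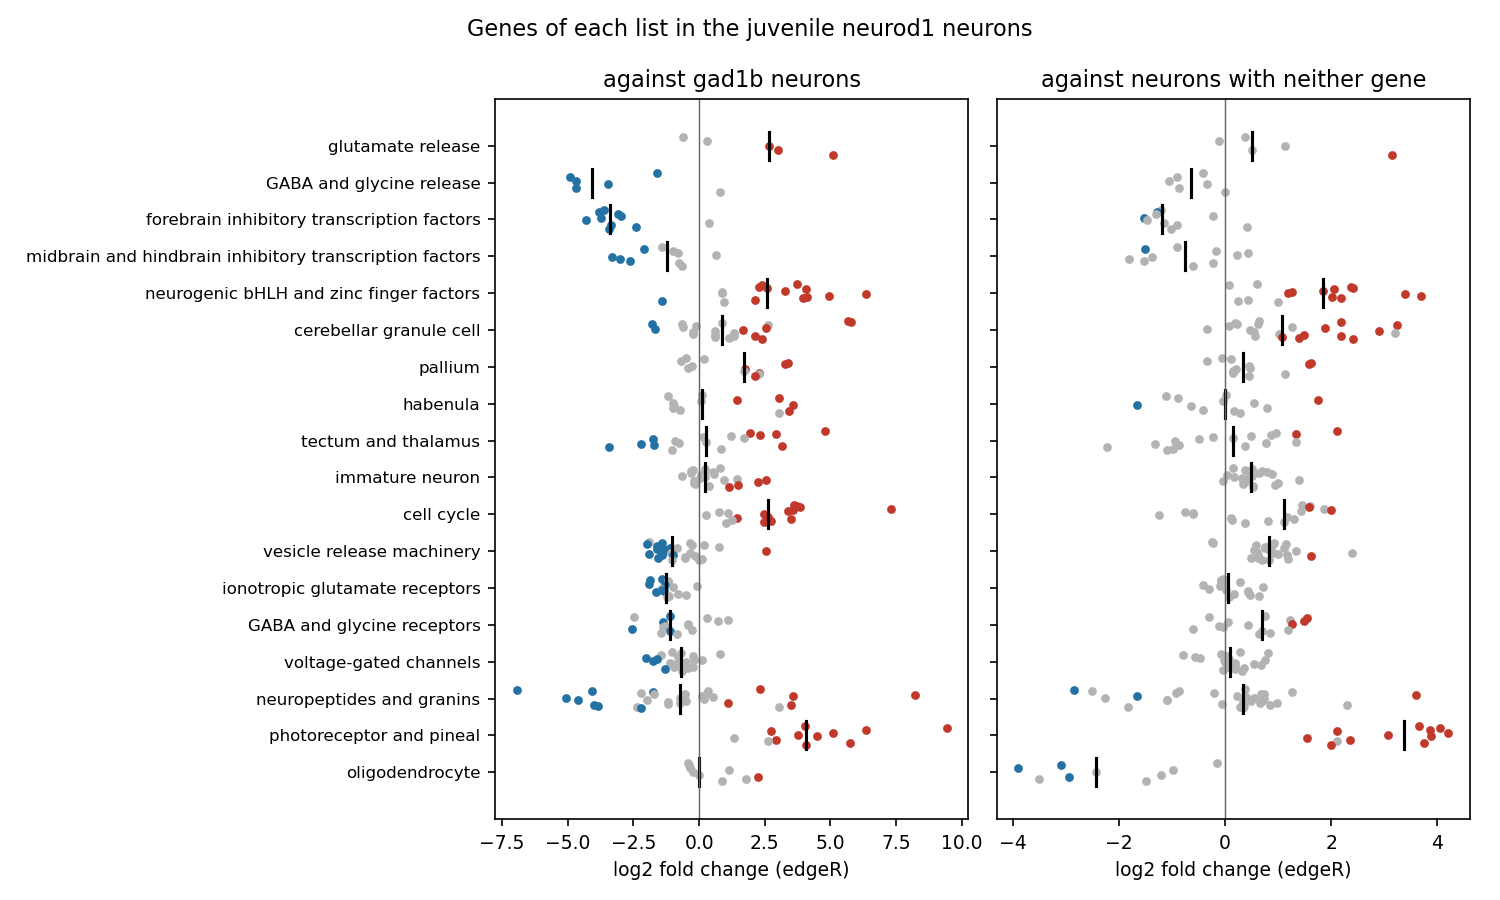
Log2 fold changes of the tested genes of 18 lists in juvenile neurod1 neurons, against gad1b neurons (left) and against neurons with neither gene (right), from edgeR. Each point is a gene, red where it was higher and blue where it was lower at an adjusted p under 0.05 and grey otherwise, and the black bar is the median of the list. The neurogenic factors lie to the right in both panels, while vesicle release machinery lies to the left of 0 against gad1b neurons (median -1.03) and to the right against neurons with neither gene (median 0.83).

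Genes found in the same cell were counted next. Of the 133 juvenile members with neurod2 and the 113 with neurod4, 11 held both. The gene insm1a was found in 79 of the 113 cells with neurod4 and in 39 of the 133 with neurod2, against 26.6% of all 956 members. Cells with neurod4 were also deeper, at a median of 2548 and 3358.5 UMIs against 1752 and 2224 UMIs in those with neurod2, so these shares carry unequal chances of detection. Of the 93 members with barhl1b 68 also held zic2a, 32 held neurod2 and 9 held neurod6b, where 34.5%, 13.9% and 10.1% of all members held these genes. Of the 97 members with neurod6b 35 held eomesa, 27 held tbr1b and 25 held neurod2, against 9.73%, 7.43% and 13.9% of all members. Cells with neurod6b had a median of 2563.5 and 2775 UMIs and those with barhl1b 1458 and 2800.5, against 1423 and 1962 in all members. Of the 93 cells with barhl1b 78 came from juvenile replicate 2. Chances of detection were thus unequal here too, and the part of depth in these shares was not tested. Cells of 1 library are not replicates, so these counts are a description with no test.

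Proliferation genes were higher than in gad1b neurons. Of 17 tested cell cycle genes 12 were higher, where 5.67% of all genes were, and none lower. The median was 2.62, or 2.47 with the gene at 0 in gad1b neurons held at its limit. Against neurons with neither gene 2 were higher (median 1.11), where 1.32% of all genes were. The mitotic kinase gene cdk1 was at 76.0 and 111 CPM against 5.73 and 12.4 CPM in gad1b neurons (3.38 ± 0.53, adjusted p = 0.0013). The anaphase activator cdc20 was at 46.9 and 83.9 CPM against 0 and 9.55 CPM (3.56 ± 0.50) and 12.6 and 15.5 CPM in neurons with neither gene (1.99 ± 0.34, adjusted p = 0.0068). The proliferation marker mki67 was at 68.4 and 128 CPM against 0 and 29.6 CPM (2.62 ± 0.56). Leukocytes held 90.2 and 125 CPM of it, above the members in juvenile replicate 1 and slightly below them in replicate 2. At least 3 of the cell cycle genes were found in 19.2% and 35.3% of leukocytes. Among members the shares were 10.7% and 16.5% (38 of 355 and 99 of 601). After thinning to 1000 UMIs the shares were 9.52% and 15.1% of members, 0% and 2.62% of gad1b neurons and 9.56% and 16.7% of leukocytes. Of the 137 members with 3 or more cell cycle genes 64 also held 3 or more granule genes (12 and 52). At least 3 granule genes were found in 30.8% of all 956 members. Those 137 cells had a median of 3778 and 3793 UMIs, against 1423 and 1962 in all members. Chances of detection were thus unequal, and the part of depth in this overlap was not tested. The part of free or foreign RNA in these counts was not tested.

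Genes of immature neurons did not move as a list, with 4 of 22 higher and none lower against gad1b neurons (median 0.23). Of all genes 5.67% were higher there. None of the list passed against neurons with neither gene in edgeR (median 0.49). The SoxC factor sox11b, active in newborn neurons, was at 465 and 515 CPM against 106 and 86.9 CPM in gad1b neurons (2.56 ± 0.49, adjusted p = 0.0045). The tubulin gene tubb5 was at 1816 and 1654 CPM against 903 and 894 CPM (1.14 ± 0.33, adjusted p = 0.042). The growth cone gene gap43 was at 242 and 445 CPM against 367 and 586 CPM (-0.32 ± 0.46, adjusted p = 0.70). The stathmin stmn1a rose by 2.25 ± 0.38, but leukocytes held more of it (352 and 430 CPM) than the members (260 and 208 CPM).

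Many synaptic genes were lower than in gad1b neurons. Of 27 tested genes of vesicle release 12 were lower and 1 higher than in gad1b neurons (median -1.03), where 4.64% and 5.67% of all genes were. Against neurons with neither gene 1 was higher, where 1.32% of all genes were, and none lower (median 0.83). The synapsin gene syn2a was at 86.1 and 131 CPM, against 487 and 418 in gad1b neurons (-1.91 ± 0.34, adjusted p = 0.0028) and 40.5 and 54.0 in neurons with neither gene (1.00 ± 0.33, adjusted p = 0.13). The vesicle protein gene sv2a was at 105 and 139 CPM against 338 and 389 CPM (-1.39 ± 0.30). The synaptophysin gene sypb was at 242 and 292 CPM against 59.7 and 96.6 CPM in neurons with neither gene (1.62 ± 0.36, adjusted p = 0.028), and at 261 and 437 CPM in gad1b neurons (-0.14 ± 0.36). The exocytosis gene stxbp1a was at 127 and 200 CPM against 327 and 531 CPM in gad1b neurons (adjusted p = 0.028, lower) while its paralog stxbp1b rose (2.56 ± 0.76, adjusted p = 0.044) at 16.5 and 20.8 CPM. The rise of stxbp1b was lost when libraries were scaled by their totals.

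Receptor and channel genes were also lower than in gad1b neurons in part. Of all genes 4.64% were lower there, and 1.32% were higher than in neurons with neither gene. Of 16 tested ionotropic glutamate receptor genes 7 were lower than in gad1b neurons and none higher (median -1.26), with the NMDA receptor subunits grin1a at 63.3 and 84.6 CPM against 198 and 231 CPM (-1.35 ± 0.29) and grin1b at 31.7 and 56.0 CPM against 129 and 184 CPM (-1.65 ± 0.29). Of 15 GABA and glycine receptor genes 4 were lower (median -1.12), among them gabrb4 (-1.39 ± 0.34) and glrbb (-1.12 ± 0.27). Against neurons with neither gene 3 were higher and none lower (median 0.69), among them gabra4 and gabrd (1.54 ± 0.37 and 1.26 ± 0.32), whose calls were lost with DESeq2. Of 22 voltage-gated channel genes 4 were lower than in gad1b neurons and none higher (median -0.68). No ionotropic glutamate receptor or voltage-gated channel gene passed in edgeR against neurons with neither gene (medians 0.05 and 0.10, against 0.05 for all genes). The adhesion gene nrxn3a was at 15.2 and 29.9 CPM against 91.8 and 159 CPM (-2.27 ± 0.31, adjusted p = 0.00040), and the activity-regulated factor npas4a at 39.3 and 61.2 CPM against 88.9 and 247 CPM (-1.51 ± 0.31).

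Neuropeptide genes differed in both directions. Of 30 tested, 5 were higher and 8 lower than in gad1b neurons (median -0.71), where 5.67% and 4.64% of all genes were. The appetite peptide gene cart2 was at 1.27 and 1.30 CPM against 126 and 236 CPM (-6.95 ± 0.46, adjusted p = 1.3e-06). Members held only 1 and 2 UMIs of cart2, and the exact counting interval of its pooled ratio to gad1b neurons was 0.00127 to 0.0183. It was also lower than in neurons with neither gene (-2.85 ± 0.59, adjusted p = 0.019). The tachykinin gene tac1 fell by 3.83 ± 0.40 and the enkephalin gene penkb by 4.60 ± 0.43. The gene npy was at 3.80 and 42.9 CPM against 22.9 and 2538 CPM, so gad1b neurons of the 2 libraries lay far apart (-5.08 ± 1.40, adjusted p = 0.032). Among those that rose, adcyap1b, which encodes the peptide PACAP, was the most abundant at 360 and 491 CPM against 91.8 and 102 CPM (2.32 ± 0.48, adjusted p = 0.0068). The somatostatin-family gene sst6 was at 64.6 and 37.1 CPM against 8.60 and 2.86 CPM (3.50 ± 0.50). Galanin (galn) was found in 14 and 12 members at 31.7 and 18.9 CPM and in no gad1b neuron, a level at least 10.8-fold higher (adjusted p = 0.049), though this call was lost under 5 of the other settings, with DESeq2 among them. Calcium-binding genes were lower in 5 of 19 (median -0.57), as with the parvalbumin gene pvalb6 at 6.33 and 25.4 CPM against 204 and 166 CPM (-3.41 ± 0.51).

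Ranked by fold change alone, the 12 genes that rose most against gad1b neurons came from few cells. They were asmt, LOC101882231, rbp4l, adm2a, LOC110437921, isl2b, gpr78b, ttk, tulp1a, scpp8, gh1 and galn, and 10 of them had no UMI at all in gad1b neurons (rbp4l had 2 and gh1 had 10 and 13). The melatonin synthesis gene asmt was at 79.8 and 42.9 CPM in 6 and 5 members, at least 25.8-fold above the gad1b neurons when 3 counts over that group are taken as the limit. The enamel-matrix family gene scpp8 was at 76.0 and 5.21 CPM in 4 and 5 members, and at 167 and 76.6 CPM in leukocytes. The 12 that fell most were c16h2orf66, pyyb, cart2, cort, sall3a, slc6a3, cart3, si:dkey-175g6.2, npy, gad2, rpp25b and XLOC_019859. The peptide gene pyyb was at 5.07 and 0.651 CPM against 364 and 342 CPM (-7.14 ± 0.60, adjusted p = 8.0e-06) and cortistatin (cort) at 50.7 and 2.60 CPM against 3435 and 820 CPM (-6.45 ± 0.69, adjusted p = 5.5e-05). The zinc finger factor sall3a had 1 UMI-positive member in juvenile replicate 1 and none in replicate 2, against 57.3 and 44.9 CPM in gad1b neurons.

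Against neurons with neither gene, the 12 that rose most were tulp1a, rbp4l, gngt1, asmt, BX004774.2, pde6gb, exorh, saga, neurod4, unc119.2, arr3a and guk1b, many of which are known from phototransduction or the pineal gland. The 12 that fell most were si:ch211-196h16.12, si:dkey-47k20.2, ccl20a.3, v2rh13, LOC103910319, acp5a, csrp1b, FP236331.1, cldnk, s100t, flj13639 and pvalb9. Of those with a known place, cldnk marks myelinating glia (16.5 and 7.81 CPM against 50.3 and 289 CPM, -3.90 ± 0.69, adjusted p = 0.0088), and s100t and pvalb9 mark hair cells in zebrafish. For s100t the levels were 3.80 and 11.7 CPM against 46.5 and 142 CPM (-3.79 ± 0.38, adjusted p = 0.00028). The hair cell list as a whole had 3 of 4 tested genes lower (median -3.43) and the oligodendrocyte list 3 of 9 (median -2.43). Of all genes 1.61% were lower than in neurons with neither gene. Here the filter on low counts could pass a gene through neurons with neither gene alone. An example is pvalb9, at 2.53 and 4.56 CPM in members against 13.2 and 61.3 CPM. The summed level of the hair cell list was 92.5 and 124 CPM in members, 442 and 731 CPM in neurons with neither gene and 48.7 and 52.2 CPM in leukocytes. Neurons with neither gene thus held more RNA of these lists. With cells that held 3 or more genes of another class left out of all groups, 611 genes passed in place of 317, and 202 passed both ways.

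Cells with RNA of other classes were also found among the members. At least 3 genes of a list for leukocytes, microglia, mesenchyme, epithelium, oligodendrocytes or endothelium were found in 78 of 355 and 80 of 601 members, and such cells had a median of 3193 and 3804.5 UMIs against 1423 and 1962 over all members. Without such cells 277 of 355 and 521 of 601 members remained, as did 132 of 157 and 320 of 364 gad1b neurons. Of neurons with neither gene 1400 of 2251 and 1770 of 2518 remained, so such cells were not particular to members. Doublets were not removed. Of all genes 5.67% were higher against gad1b neurons and 1.32% against neurons with neither gene. Against gad1b neurons the lists of epithelium (6 of 9 higher, median 2.26), mesenchyme (5 of 11, median 1.30) and microglia (4 of 7, median 1.40) were higher with no gene lower, and against neurons with neither gene none of these genes was higher. The epithelial adhesion gene epcam was at 338 and 457 CPM, in 46 and 94 members, against 51.6 and 105 CPM in gad1b neurons and 32.4 and 73.1 CPM in leukocytes (2.51 ± 0.45, adjusted p = 0.0028). The epithelium list summed to 863 and 2535 CPM in members, 229 and 1591 CPM in gad1b neurons, 1735 and 3885 CPM in neurons with neither gene and 294 and 578 CPM in leukocytes. The mesenchyme list summed to 2439 and 602 CPM, 1038 and 292 CPM, 2028 and 1335 CPM, and 606 and 155 CPM in the same order. With such cells left out of all groups 1457 genes passed against gad1b neurons in place of 1113, and neurod2, neurod4, insm1a, slc17a7a, zic2a and barhl1b still passed in both comparisons. The part of this RNA in the rise of the epithelial, mesenchymal and microglial genes was not tested.

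**Figure D3:**
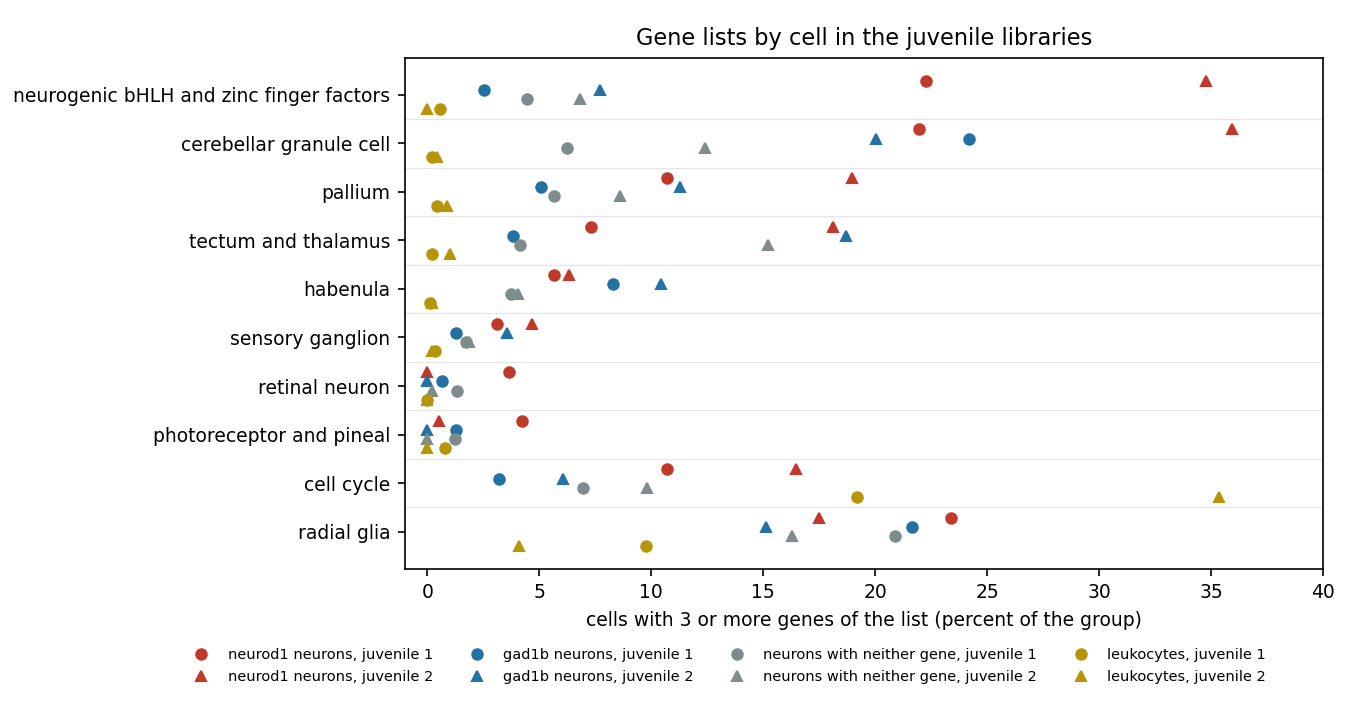
Share of cells with UMIs of 3 or more genes of a list, in percent of each group, in the 2 juvenile libraries (circles replicate 1, triangles replicate 2). Neurod1 neurons stand highest for neurogenic factors (22.3% and 34.8%), where leukocytes are at 0.561% and 0%, whereas for cell cycle genes leukocytes stand highest. Shares are not corrected for depth.

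Glial and progenitor genes were mixed. The Notch target her4.2, used in radial glia, was at 898 and 938 CPM in 88 and 130 members, against 143 and 104 CPM in gad1b neurons (3.15 ± 0.85, adjusted p = 0.029) and 316 and 458 CPM in neurons with neither gene (1.00 ± 0.77, adjusted p = 0.58). The call against gad1b neurons was lost with DESeq2. The proteoglycan gene cspg5b was at 92.5 and 101 CPM and passed in both comparisons (3.59 ± 0.44 and 1.88 ± 0.30), as an RNA-binding gene of progenitors, msi1, did against gad1b neurons (3.24 ± 0.54). The progenitor factor sox2 fell against gad1b neurons, from 40.1 and 74.5 CPM to 10.1 and 12.4 CPM (-2.19 ± 0.39). Of 13 radial glia genes 2 were higher and 1 lower there (median 0.55), where 5.67% and 4.64% of all genes were. Against neurons with neither gene 1 was higher (median -0.89), where 1.32% of all genes were. The radial glia list summed to 2528 and 2322 CPM in members, 1953 and 1120 CPM in gad1b neurons, 2395 and 2609 CPM in neurons with neither gene and 532 and 282 CPM in leukocytes.

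A few members stood far apart from the rest. Growth hormone (gh1) gave 5320 and 3719 UMIs, which came from 13 and 23 cells, with 3096 and 3622 UMIs in the single highest cell of each library. The melanocortin precursor pomca gave 1547 and 9433 UMIs from 29 and 40 cells, with 98.4% and 99.3% of them in the 5 highest cells. These genes had the largest variance-to-mean ratio in thinned cells. Members in which pituitary hormone genes took at least 1% of UMIs numbered 5 and 16. The fitted rise of gh1 against gad1b neurons (8.24 ± 1.2, adjusted p = 0.00075) turned to -0.16 when these cells were left out. That of pomca was 6.93 ± 0.60 and became -0.13 when cells with photoreceptor or other-class genes were left out as well. In the 760 members with none of these profiles gh1 was at 16.1 and 12.8 CPM, near the 21.5 and 15.5 CPM of leukocytes. Both gh1 and pomca were among the hormone genes that picked the cells left out, so these falls are partly set by that choice. The remaining variable genes included the calcium-binding gene s100z (1355 UMIs in 50 cells of juvenile replicate 2), pvalb5, and sst1.1, of which 82.5% of the UMIs of juvenile replicate 2 lay in 1 cell.

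Photoreceptor and pineal genes formed the other such profile. At least 3 of 24 listed genes were found in 15 of 355 and 3 of 601 juvenile members. Of 12 tested genes 11 were higher against neurons with neither gene (median 3.37), where 1.32% of all genes were. Against gad1b neurons 10 were higher (median 4.06), where 5.67% of all genes were, and none was lower in either. The filter on low counts can pass a gene through members alone. The gene asmt, for example, had 0 and 0 CPM in gad1b neurons and 6.61 and 0.807 CPM in neurons with neither gene. These counts and medians are therefore partly set by the filter. The pineal opsin gene exorh was at 208 and 205 CPM, in 4 and 3 members, against 43.9 and 1.13 CPM in neurons with neither gene (3.87 ± 0.78, adjusted p = 0.018). The phosphodiesterase subunit gene pde6gb was at 536 and 184 CPM in 18 and 10 members (3.89 ± 0.55, adjusted p = 0.0026), a call lost when the photoreceptor-gene cells were left out. Rod opsin (rho) was present in juvenile replicate 1 alone, with 832 UMIs against 0 in replicate 2. In the 760 members outside these profiles exorh was at 0 and 0.915 CPM, pde6gb at 11.5 and 29.3 CPM, gngt1 at 36.7 and 0 CPM and saga at 11.5 and 0 CPM. These genes are on the list that picked the photoreceptor-gene cells. Their low levels there and the lost pde6gb call are thus partly set by that choice. The rise of rbp4l against neurons with neither gene (4.38 ± 0.92, adjusted p = 0.021) turned to -0.31 when the 18 cells were left out, with such cells left out of the other groups too.

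In adult replicate 1 nearly all members had that profile. Of its 19 members 18 held at least 3 photoreceptor and pineal genes, and the list summed to 74166 CPM against 3098 and 738 CPM in the juvenile members. With 1 adult library of more than 10 members there is no test between stages, and the intervals here are exact Poisson ones for counting error only. In these 19 cells exorh was at 15494 CPM (interval 14770 to 16244), pde6gb at 19356 CPM (18545 to 20193) and gngt1 at 14348 CPM (13651 to 15071). The melatonin gene asmt was at 4214 CPM (3840 to 4614), and aanat2, the enzyme before it in the pathway, at 578 CPM (445 to 737). The serotonin synthesis genes tph2 and ddc were at 1498 CPM (1279 to 1744) and 1227 CPM (1030 to 1452). In adult replicate 1 rho had no UMI (upper limit 33.3 CPM), as in juvenile replicate 2. The gene insm1a was at 767 CPM (613 to 948) in 15 of the 19 cells, whereas neurod2, neurod6b, barhl1b and en1b had no UMI there. These cells passed the rule mainly by snap25b, found in all 19, and syt1a, found in 14, while elavl3 and stmn1b gave 1 UMI each. These 19 cells were led by rbp4l, pde6gb and exorh. The single elavl3 UMI lay in the 1 member without the photoreceptor and pineal profile. That member also held slc17a6b and 5 of the neuronal genes of the rule. Low elavl3 and stmn1b set the 18 members with the profile apart from the juvenile members. Whether those 18 cells are neurons was not tested. Adult replicate 2 had 2 members and is given by number only.

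**Figure D4:**
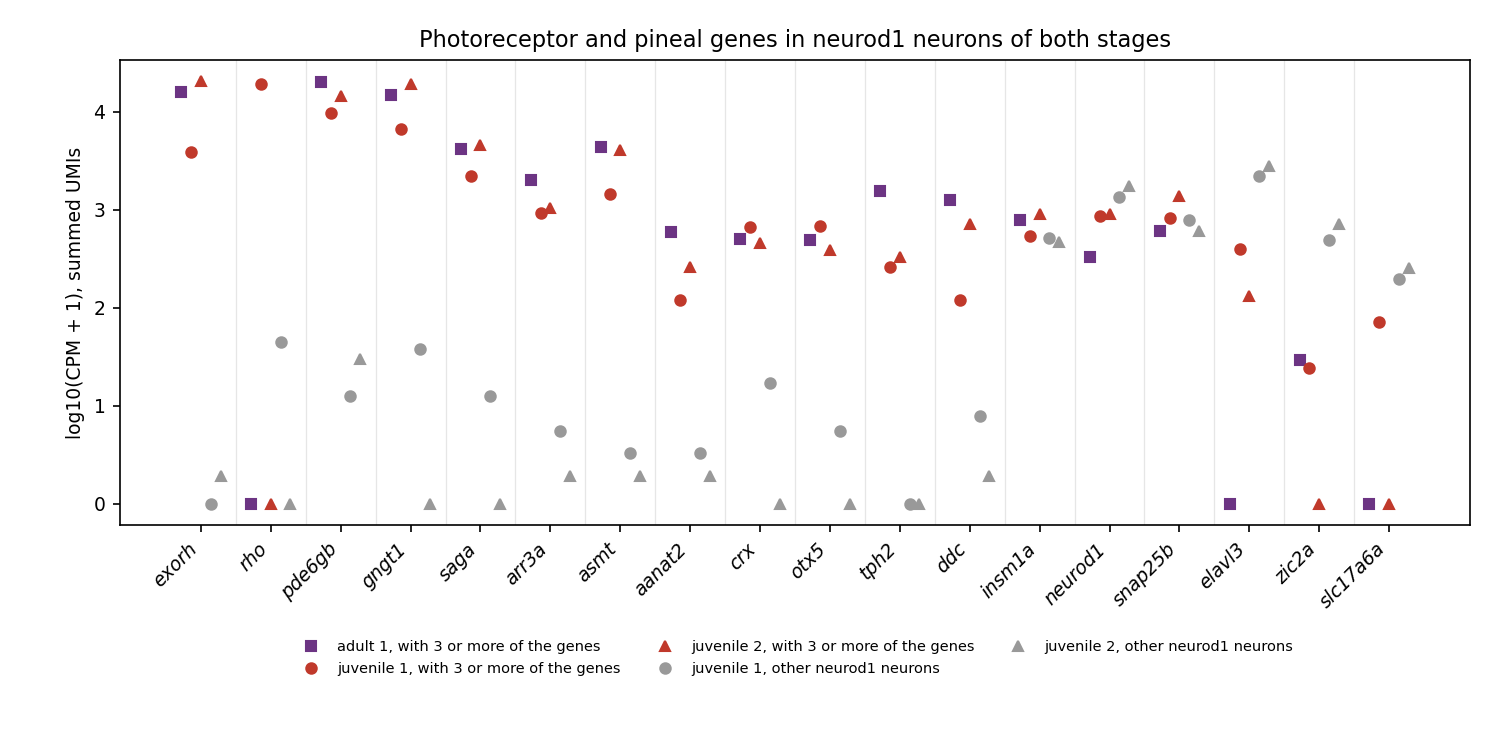
Levels of photoreceptor and pineal genes (exorh to ddc), neuroendocrine and rule genes in neurod1 neurons, as log10(CPM + 1) of summed UMIs. Squares are the 18 members of adult replicate 1 with 3 or more photoreceptor and pineal genes, red symbols the 15 and 3 such members of the juvenile libraries, and grey symbols the 258 and 502 juvenile members outside the photoreceptor, pituitary and other-class profiles. Summed UMIs of exorh, pde6gb, gngt1 and asmt are present in the marked cells of both stages. Of all juvenile members only 4 and 3 held exorh and 6 and 5 held asmt, so not every marked cell of juvenile replicate 1 holds them. The gene rho is in juvenile replicate 1 alone, and elavl3 has no UMI in the adult cells plotted.

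Over the 8 juvenile sums, the genes outside the rule whose log2(CPM + 10) followed neurod1 most closely were amer2 (Pearson r = 0.98), nfia (0.93), zic2a (0.93), med18 (0.92) and coro2ba (0.92). The sums of a library share their depth and free RNA, and all 4 groups were chosen by the presence or absence of neurod1. These correlations are therefore given as a description with no test. Among the most abundant genes of the members, ribosomal protein genes made up 22.3% and 19.5% of UMIs and mitochondrial genes 2.79% and 2.62%. Outside these the highest by mean were CR383676.1 at 85282 and 71813 CPM and si:dkey-151g10.6 at 12461 and 12857 CPM, which were at 35584 and 26409 CPM and 22708 and 28037 CPM in leukocytes. The hemoglobin genes hbba1 and hbaa1 came next through juvenile replicate 1 (22577 and 14084 CPM, against 21.5 and 16.3 CPM in replicate 2). Then came the translation factor eef1a1l1 (5421 and 6825 CPM), the chromatin gene hmgn2 (4765 and 5918 CPM), the chaperone gene hsp90ab1 (4709 and 5004 CPM), the actin gene actb2 (5006 and 4167 CPM), gh1, and the prothymosin gene ptmab (4209 and 3998 CPM).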

How the data were processed

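The authors deposited filtered UMI counts per gene and cell for 4 10x libraries, aligned to GRCz11 with Cell Ranger and analysed in Seurat (version 4.1.1 in the submitters' processing notes). The deposited counts were used as given, with the authors' cell limits (over 200 but under 2500 genes, mitochondrial share below 25%). Doublets were not removed, and alternatives left out cells with genes of another class. UMIs of all cells of a group in a library were added up, and the 8 juvenile sums were tested with edgeR 4.0.16 (glmQLFit, TMM, filterByExpr) with the library as a block, since groups of 1 library share its fish and sort, and with DESeq2 1.42.0 as an alternative (R 4.3.3). The 3 residual degrees of freedom measure how far differences between the groups of the fit disagreed between the juvenile libraries. The p-values rest on that disagreement and speak for these libraries only. Depth was 789508 and 1536759 UMIs in the juvenile members. Levels below 3 counts over a group were taken as the limit for fold changes against 0. Genes are named where they were among the 12 largest changes each way that passed, on a gene list, among the most abundant or most variable, or nearest to neurod1. The members and gene lists were chosen with earlier results of these data known. The test was also run on simulated sums with 1 fixed spread for every gene and group means that differed only in genes changed on purpose. Genes carried by a few cells were not simulated, so that run cannot vouch for their calls. Shares used Clopper-Pearson intervals and levels exact Poisson intervals (scipy 1.17.1). Some genes are not reported here.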

Additional observations from a re-analysis of the deposited data

Results flagged for a closer look

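The newborn neuron gene sox11b lay above neurons with neither gene in both juvenile libraries, by 1.76 and 1.36 on the log2(CPM + 10) scale, and below them in adult replicate 1, by -1.82. The adult value rests on 3 UMIs in members and 10 in neurons with neither gene, and the difference between stages was not tested. Of the 19 members of adult replicate 1, 18 had the photoreceptor and pineal profile, against 18 of the 956 juvenile members. The stages thus compare unlike sets of cells.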

How the results depend on the processing

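The number of calls depended on the setting. Against gad1b neurons 1113 genes passed, with 672 after thinning cells to 1000 UMIs and 39 without the replicate block, and between 839 and 1503 under the other settings. Against neurons with neither gene 317 passed, with 128 by DESeq2, 959 with no filter on low counts, 203 with the adult libraries added and 663 with 2 or more UMIs required. Under settings chosen after seeing the data, leaving out cells gave 904 (radial glia genes), 611 (other classes) and 663 (photoreceptor, pituitary and other classes). Without the replicate block 0 passed in edgeR there (531 at an unadjusted p under 0.05). The share difference of 5.43 points ranged from 3.78 to 7.09 when 1 library was left out. With 2 or more UMIs required it was 2.47, and after thinning 3.12. Without cells with 2 or more genes of another class, red blood cells included, it was 2.22. Juvenile replicate 1 (0.0962%) then lay below adult replicate 1 (0.531%). Of the 355 members of juvenile replicate 1, 347 held 2 or more red blood cell genes. With cells of the neuronal gate as denominator the difference became -9.25. On that denominator it was 6.62 without photoreceptor-gene cells, 9.58 without all 3 profiles, 8.64 after thinning, and between -9.45 and -2.92 under the other settings. Reversed genes were gh1 against gad1b neurons (-0.16 without pituitary hormone cells, -0.39 without all 3 profiles), pomca there (-0.13 without all 3) and rbp4l against neurons with neither gene (-0.31 without photoreceptor cells, -0.47 without all 3). The pituitary hormone cells were picked by a list that holds gh1 and pomca, so the reversals of these genes are partly set by that choice. Leaving out cells with 2 or more genes of another class could not be fitted for the comparisons, since 8 members of juvenile replicate 1 remained, and adult gad1b neurons (4 and 7 cells) were too few to add. Depth limits low genes, since most members held 1 neurod1 UMI and a median of 1423 and 1962 UMIs.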
